A study of Mus musculus with 20 samples.

Results

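In macrophages grown from mouse bone marrow, 45 genes, taken after symbols of the main cytokine, chemokine and interferon-induced families were set aside, lay below 1 CPM at rest (CPM, counts scaled to the TMM-adjusted library total, in parts per 1e6) and at 20 CPM or more after 3 h of bacterial lipopolysaccharide (LPS). They are 45 of 24342 gene symbols in the count table. A gene was taken when its mean was under 1 CPM in the 4 DMSO libraries and 20 CPM or more in the 3 DMSO+LPS libraries. Symbols starting with Il, Ccl, Cxcl, Ifi, Ifn, Isg, Oas, Mx or Gbp were left out. The contrast of those 7 libraries chose the genes, so the members were selected on measured levels and their switch-on in DMSO cells is a description here and carries no test. The 45 genes all passed the filter on low counts, which left 12013 genes in the tests, and they passed it through the DMSO+LPS libraries that define them. The name "outside cytokines" holds only for symbols, since Inhba, which encodes a subunit of the cytokine activin A, and Edn1, which encodes the precursor of the vasoconstrictor peptide endothelin-1, are among the 45. Interferon-inducible genes with other symbols, such as the GTPase gene Tgtp1, are members too.

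The cells were bone marrow-derived macrophages of C57BL/6 mice, grown for 7 to 8 days with M-CSF from L929-conditioned medium (15%). Either 1 µM SGC0946, a small-molecule inhibitor of the histone H3 lysine 79 methyltransferase DOT1L, or the solvent DMSO was present during that growth. The 6 groups were DMSO (4 libraries), SGC0946 (4), DMSO+LPS (3) and SGC0946+LPS (3), both at 10 ng/mL LPS for 3 h, and DMSO+GW3965 (3) and SGC0946+GW3965 (3), both at 2 µM of the liver X receptor agonist GW3965 for 17 h. No group received LPS together with GW3965. The inhibitor was given from the start of growth, so an effect on how the macrophages formed and an effect on the LPS response itself cannot be told apart. Replicate numbers are mice, and libraries with the same number come from the same mouse.

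LPS is sensed by Toll-like receptor 4, which signals through the adaptors MyD88 and TRIF to NF-kB, MAP kinases and interferon regulatory factors. Within hours macrophages start to transcribe genes that are close to silent at rest, among them enzymes of nitric oxide and prostaglandin synthesis, adhesion molecules, protease inhibitors and feedback regulators. DOT1L places methyl groups on lysine 79 of histone H3 along the bodies of transcribed genes. GW3965 activates the liver X receptors, which drive cholesterol efflux genes and are known to hold down part of the inflammatory programme.

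Promoters of 37 of the 45 genes were found in the RefSeq promoter table (GRCm38.p6), and the bases before the start site were searched for 5 short motifs. Those not found include Nos2, Vcam1, Adora2a and Adamts4, so the shares below leave them out. The next lines show 6 of these promoters, from 250 bases before the start up to the base before it, 5′ to 3′ on the gene's strand. They were chosen because each holds a motif of a factor that LPS signalling is known to use, and capitals mark each match to any of the motifs. For Col27a1 the start in the RefSeq promoter table lies inside the gene's span given further on (chr4:63214009-63334991), so its stretch is not the one before the first base of that span.
Edn1, chr13:42301226-42301475, plus strand: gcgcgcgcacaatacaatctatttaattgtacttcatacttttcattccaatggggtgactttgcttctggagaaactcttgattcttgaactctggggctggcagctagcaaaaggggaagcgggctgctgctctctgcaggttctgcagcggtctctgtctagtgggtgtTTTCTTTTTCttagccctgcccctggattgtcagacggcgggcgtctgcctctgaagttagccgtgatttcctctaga
Tgtp1, chr11:48992247-48992496, minus strand: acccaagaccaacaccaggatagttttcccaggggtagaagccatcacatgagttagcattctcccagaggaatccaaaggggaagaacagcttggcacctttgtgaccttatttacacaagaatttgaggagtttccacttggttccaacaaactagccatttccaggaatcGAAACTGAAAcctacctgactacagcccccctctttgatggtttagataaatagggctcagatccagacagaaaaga
Col27a1, chr4:63215162-63215411, plus strand: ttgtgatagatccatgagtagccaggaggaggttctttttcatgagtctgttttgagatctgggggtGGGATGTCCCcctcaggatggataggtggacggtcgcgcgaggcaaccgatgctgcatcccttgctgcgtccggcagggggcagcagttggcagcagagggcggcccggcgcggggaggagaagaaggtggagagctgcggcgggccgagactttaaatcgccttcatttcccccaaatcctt
Mmp25, chr17:23645270-23645519, minus strand: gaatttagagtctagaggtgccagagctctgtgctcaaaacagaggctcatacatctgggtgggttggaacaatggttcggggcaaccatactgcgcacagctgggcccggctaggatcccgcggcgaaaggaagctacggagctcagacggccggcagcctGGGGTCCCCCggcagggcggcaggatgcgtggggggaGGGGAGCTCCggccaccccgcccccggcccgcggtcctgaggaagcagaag
Ch25h, chr19:34475149-34475398, minus strand: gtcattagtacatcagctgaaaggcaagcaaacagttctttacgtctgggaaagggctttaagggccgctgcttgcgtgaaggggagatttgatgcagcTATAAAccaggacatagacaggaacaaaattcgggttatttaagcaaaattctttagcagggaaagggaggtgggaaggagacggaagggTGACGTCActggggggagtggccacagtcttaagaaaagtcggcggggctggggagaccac
Fscn1, chr5:142960105-142960354, plus strand: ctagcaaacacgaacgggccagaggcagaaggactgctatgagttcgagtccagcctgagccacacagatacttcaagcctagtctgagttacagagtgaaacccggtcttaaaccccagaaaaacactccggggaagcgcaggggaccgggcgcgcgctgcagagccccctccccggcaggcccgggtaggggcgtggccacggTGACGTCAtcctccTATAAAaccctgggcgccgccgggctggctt
The capitals are the interferon-response core (GAAA, NN, GAAA) in Edn1 (on the opposite strand) and Tgtp1, the NF-kB consensus in Col27a1 and at 2 places in Mmp25, and the cyclic AMP response element TGACGTCA with TATAAA in Ch25h and Fscn1. In Fscn1, TATAAA starts 31 bases before the start site. In the other members that hold it, it starts between 227 (Fpr1) and 8 bases (Mycl) before that site. TATAAA, searched on the gene strand only, was in 9 of the 37 promoters (24.3%), against 4.69% of 9644 promoters of tested genes and 8.94% of all 27025 in the table. The other motifs were searched on both strands. The AP-1 motif TGANTCA was in 5 of 37 (13.5%, against 5.61% of tested genes and 7.82% of all), and the NF-kB consensus also in 5 of 37 (13.5%, against 10.6% and 8.23%). The interferon-response core was in 2 of 37 (5.41%, against 3.46% of tested genes and 3.46% of all) and TGACGTCA in 2 of 37 (5.41%, against 3.03% and 1.77%). These are matches of letters, given as a description.

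2 of the 45 entries carry the names of microRNA genes, and another, Mir155hg, is the host RNA of miR-155. The next lines give a single mature sequence per locus from RefSeq (GRCm38.p6), with the seed (bases 2 to 8) in capitals. No seed is shared between those shown. A locus can encode more, and miR-155-3p, from the locus of miR-155-5p, is left out here.
mmu-miR-155-5p, chr16:84714143-84714165, plus strand: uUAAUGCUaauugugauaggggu
mmu-miR-147-5p, chr2:122640814-122640837, plus strand: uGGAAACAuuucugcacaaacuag
mmu-miR-6381, chr3:142623925-142623945, minus strand: cAGGAUGCuggugacaugagu
The library kit named in the labels is one for mRNA, so the counts of microRNA entries are not read here as levels of mature microRNA. The Mir147 entry (chr2:122640803-122640881) lies 100% inside an exon of AA467197 on the annotation used. Of the Mir6381 entry, 27.6% lies in exons of Gbp2, which is no member, at a mean of 47.9 CPM in DMSO. Of Gm14023, 12.5% is antisense to Il1a, which is no member either, at a mean of 1.37 CPM in DMSO, and 40% of G530011O06Rik lies in Mid1 on the other strand. Ch25h and Cnn3 share 11.5% and 17.7% of their exons with long noncoding RNAs on the other strand. The labels do not say whether reads were counted by strand, so counts of these 6 entries can hold reads of the overlapping gene. Bcl2a1d, Tgtp1, Serpina3f, Slfn4, Fpr1 and Fpr2 have close paralogs, and reads may be split between the copies.

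Depth was 8.17 to 13.33 M counts per library, so before TMM scaling 1 CPM was worth about 10.4 counts at the median depth. TMM scaling raised the counts per CPM in libraries without LPS and lowered them in LPS libraries. A level below 0.3 CPM rests on only a few reads. Summed over a list of 9 macrophage markers (Adgre1, Csf1r, Cd68 and others), all groups lay between 12260 and 20710 CPM. T and NK cell, erythroid and stromal lists stayed at 1.09 CPM or below in every library, with Lum at 0 throughout. Not all other lists were that low. Over all groups, 5 endothelial markers, 4 of them past the filter, summed to 239 to 441 CPM. For 5 mast cell and basophil markers, 1 of them past the filter, the sum was 5.59 to 29.8 CPM. A list of 10 neutrophil and granulocyte precursor markers summed to 29.4 to 38.7 CPM in DMSO and 2.52 to 8.27 CPM in SGC0946 cells, with 4 of the 10 past the filter. In bulk RNA, fewer cells of a type and less RNA per cell cannot be told apart. The word reanalyzed stands in the titles of DMSO replicates 1 to 3 and of the 3 DMSO+GW3965 libraries, and in no title of an LPS or SGC0946 library. The labels do not say what it refers to.

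The 45 genes together held 17.0 to 18.7 CPM in the DMSO libraries and 5378 to 5764 CPM in the DMSO+LPS libraries. Nos2, the inducible nitric oxide synthase, and Ptgs2, the inducible prostaglandin synthase COX-2, made up more than any other members. Nos2 (chr11:78920787-78960226) was at 1.09, 0.663, 0.717 and 0.900 CPM in the 4 DMSO libraries and at 1879, 1492 and 1860 CPM in the 3 DMSO+LPS libraries. Ptgs2 (chr1:150100031-150108234) was at 0.420, 0.663, 0.159 and 1.05 CPM at rest and at 1321, 1292 and 1232 CPM after LPS. Without these 2 genes, the other members summed to 2561 to 2672 CPM after LPS. Per length, on the authors' RPKM scale, mean levels after LPS ran from 263 for Nos2 and 180 for Ptgs2 down to 2.22 for Inhba, with only the short Mir6381 entry above Nos2. The plot of levels by library shows these 2 enzymes apart from the rest and the low background of all members in every group without LPS.

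**Figure D1:**
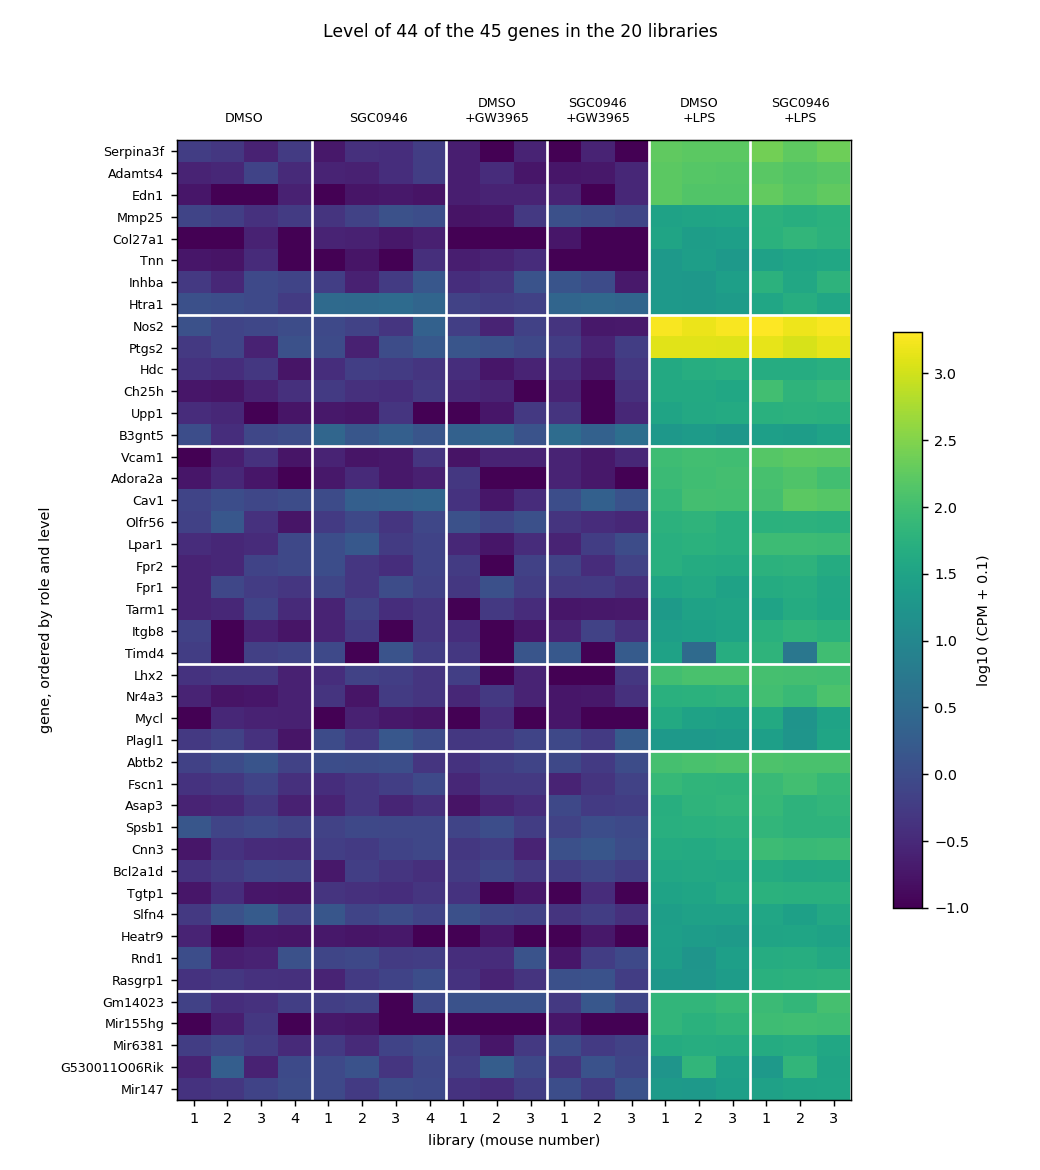
Level of 44 of the 45 genes (rows, ordered by role and by level after LPS) in each of the 20 libraries (columns, numbered by mouse), as log10 of CPM plus 0.1. The 6 LPS libraries on the right stand apart from the 14 others in every row, and Nos2 and Ptgs2 are the brightest rows.

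Near the resting limit, Slfn4 (0.918 CPM in DMSO), Spsb1 (0.850) and Nos2 (0.843) were just inside, and Cx3cl1 (1.06), Slfn1 (1.077) and Hcar2 (1.08) just outside. At the LPS limit, Rasgrp1 (20.3 CPM), B3gnt5 (20.7) and Htra1 (20.97) were just inside, and Lck (19.9), Tpbg (19.8) and Gem (19.4) just outside.

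The same switch-on was measured in cells grown with SGC0946, whose libraries the rule did not use. All 45 genes were higher in SGC0946+LPS than in SGC0946 libraries by the quasi-likelihood F test of edgeR, at a Benjamini-Hochberg adjusted p under 0.05 (35.8% of the 12013 tested genes were called higher and 38.8% lower). The groups did not overlap for any of the 45, but the share of all tested genes without overlap was not counted here. Their median log2 fold change was 7.25, against -0.07 over all genes tested. Members were chosen for a large rise in DMSO cells of the same mice, which makes a large rise here likely. All 45 also stayed called when any 1 of the 7 libraries, or both libraries of mouse 2, were left out. Among the 42 genes with more than 3 counts in the SGC0946 group, the log2 fold change ran from 3.80 ± 0.14 (SE) for Htra1, a secreted serine protease, to 10.81 ± 0.22 for Nos2. The other 3 were close to 0 counts before LPS, so their change is given as a ratio with an exact 95% interval that covers counting error only. Edn1 went from 3 counts in 4 libraries to 3815 in 3, a ratio of 2845 (973 to 13800). Mir155hg went from 2 counts to 2129, a ratio of 2382 (659 to 19680), and Heatr9 from 3 to 727, a ratio of 542 (185 to 2635).

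By role, the secreted and matrix proteins had the highest median log2 fold change in SGC0946 cells, 8.67 over 9 genes, with Adamts4, an aggrecan-cleaving protease, at 9.01 ± 0.17. The 6 enzymes had a median of 8.23 and the 4 transcription factors one of 8.09. The 11 intracellular proteins had a median of 7.17, among them Cnn3, an actin-binding calponin, at 7.17 ± 0.14. Receptors and other membrane proteins had a median of 6.63 over 10 genes, with Vcam1, an adhesion molecule for leukocyte integrins, at 9.71 ± 0.18. These roles were given to the genes after they were known, and the medians are descriptions.

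The genes of LPS sensing and signalling that were not part of the 45 had smaller median changes. The rule required a large rise with LPS in DMSO cells and these lists did not, so that order follows from the selection. Of 17 receptor and adaptor genes, 11 were higher and 4 lower after LPS in SGC0946 cells, with a median log2 fold change of 0.48. Among them were Irak2 (3.26 ± 0.07), a kinase of the MyD88 complex, and Cd14 (3.503 ± 0.09), the LPS co-receptor. Of 37 kinase and transcription factor genes, 28 were higher and 4 lower, with a median of 1.73. In that list Nfkbiz (6.80 ± 0.09), a nuclear NF-kB regulator, and Tnfaip3 (6.08 ± 0.10), a feedback inhibitor of NF-kB, were called higher.

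After LPS, 16 of the 45 genes (35.6%) were higher in cells grown with SGC0946 than with DMSO and none was lower by edgeR's adjusted p (3.86% of tested genes were called higher and 3.26% lower). They cover several roles and include matrix and secreted proteins (Inhba, Col27a1, Htra1, Mmp25), membrane proteins (Vcam1, Itgb8, Lpar1, Cav1) and signalling or cytoskeletal proteins (Rasgrp1, Cnn3, Rnd1, Tgtp1). Ch25h, Nr4a3 and Mir155hg were called as well. The median log2 fold change of the 45 was 0.41, against a median near 0 (-0.0045) over all genes tested. Of the 45, 40 were above 0 (49% of all tested genes). The DMSO+LPS libraries set the lower limit for membership and are also the reference here, while the SGC0946+LPS libraries were not used to choose genes. At unadjusted p under 0.05, 26 of the 45 were higher and 0 lower, but the share of all tested genes at that limit was not counted. With mouse number as a block in the fit, 24 were called higher and 0 lower (633 and 534 of all tested genes).

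Groups did not overlap for 24 of the 45 genes, each with every SGC0946+LPS library above every DMSO+LPS library (11.9% of tested genes), and none lay wholly below (11.7%). Within mice, 31 of 45 genes were higher with the inhibitor in 3 of 3 mice (20.4% of tested genes) and 1 was lower in all 3 (20.6%). The median within-mouse log2 ratio over the 45 was 0.45, 0.47 and 0.46 in mice 1, 2 and 3, computed with 0.1 CPM added. The summed level was 6090 to 7101 CPM in SGC0946+LPS, above the 5378 to 5764 CPM in DMSO+LPS. Without Nos2 and Ptgs2 the sums were 3377 to 3694 and 2561 to 2672 CPM.

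**Figure D2:**
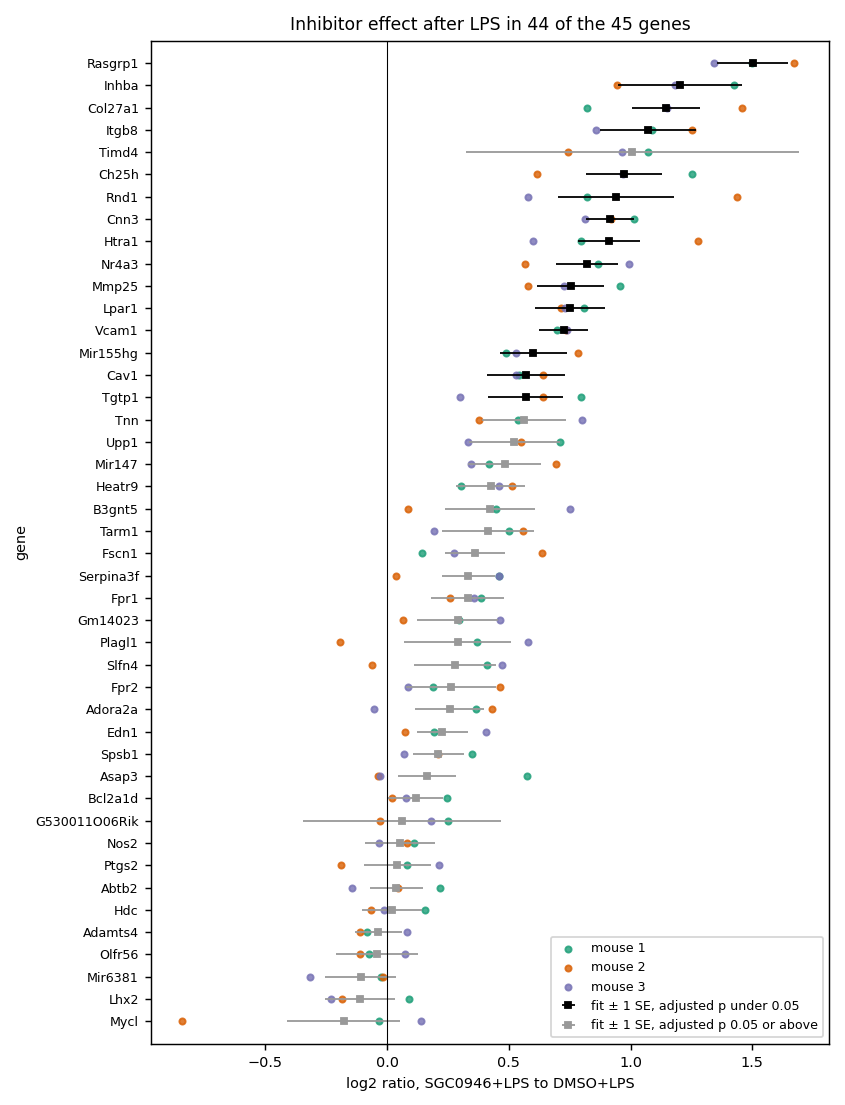
Log2 ratio of SGC0946+LPS to DMSO+LPS for 44 of the 45 genes. Squares are the fitted log2 fold changes with 1 SE (black where edgeR's adjusted p was under 0.05) and coloured points are the ratios in mice 1 to 3. Rasgrp1 at 1.501 is the highest, and Timd4 has the widest error bar.

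Rasgrp1, a guanine nucleotide exchange factor that activates Ras, showed the largest effect of the inhibitor among the 45. It lies at chr2:117279983-117342877. Its level was 18.96, 18 and 23.8 CPM in DMSO+LPS and 53.7, 57.5 and 60.5 CPM in SGC0946+LPS. The inhibitor libraries were all above the DMSO libraries, by a log2 fold change of 1.501 ± 0.144 (edgeR adjusted p = 4.57e-06). Cnn3 (chr3:121426541-121458205) was at 43.8, 43.2 and 48.3 CPM against 88.5, 81.9 and 84.9 CPM, a log2 fold change of 0.92 ± 0.10 (edgeR adjusted p = 1.1e-05). Its groups were separate as well. Rnd1, a small GTPase that loosens the actin skeleton, was at 26.2, 17.7 and 26.9 CPM in DMSO+LPS and at 46.4, 48.0 and 40.1 CPM with the inhibitor (0.94 ± 0.24, edgeR adjusted p = 0.0189). That call was lost without mouse 2 in DMSO+LPS, mouse 1 in SGC0946+LPS or mouse 2 in SGC0946+LPS (edgeR adjusted p = 0.118, 0.053 and 0.0564). DESeq2 did not call Rnd1 (adjusted p = 0.374). With the block it was called (edgeR adjusted p = 0.00368), and the leave-one-out fits carried no block. Tgtp1, an interferon-inducible GTPase, had a log2 fold change of 0.57 ± 0.15 (edgeR adjusted p = 0.0278, with the block 0.00739). In the fit without the block, leaving out any library but DMSO+LPS replicate 3 ended the call (edgeR adjusted p = 0.0595 to 0.13).

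Of the 9 secreted and matrix proteins, 5 were called higher and 4 were not. Col27a1, a fibrillar collagen chain (chr4:63214009-63334991), was at 32.2, 25.2 and 26.4 CPM in DMSO+LPS and at 56.9, 69.5 and 58.8 CPM in SGC0946+LPS. The groups were apart, with a log2 fold change of 1.15 ± 0.14 (edgeR adjusted p = 6.51e-05). Inhba (chr13:16004256-16031609) was at 21.6, 19.9 and 26.6 CPM against 58.0, 38.4 and 60.5 CPM. The libraries of mouse 2 were the lowest of both groups, and the log2 fold change was 1.20 ± 0.25 (edgeR adjusted p = 0.00563, with the block 0.000111, DESeq2 adjusted p = 0.255). Htra1 (chr7:130936203-130985658) was at 20.3, 19.5 and 23.1 CPM against 35.4, 47.4 and 35.0 CPM (0.91 ± 0.13, edgeR adjusted p = 0.000129). Mmp25, a membrane-anchored matrix metalloproteinase, was at 30.3, 33.0 and 33.8 CPM against 58.8, 49.3 and 55.9 CPM (0.76 ± 0.14, edgeR adjusted p = 0.00158). Both had separate groups. Among the 4 not called, Tnn, an extracellular tenascin, had a log2 fold change of 0.56 ± 0.17, Serpina3f, a serine protease inhibitor, 0.33 ± 0.11, Edn1 0.23 ± 0.10 and Adamts4 -0.04 ± 0.10. With the block, Tnn and Serpina3f were called higher (edgeR adjusted p = 0.0186 and 0.0244).

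Among membrane proteins, Vcam1 (chr3:116110020-116129688) was at 92.1, 100.6 and 97.7 CPM in DMSO+LPS and at 150, 168 and 163 CPM in SGC0946+LPS. Its 3 mice gave nearly the same ratio, with a log2 fold change of 0.73 ± 0.10 (edgeR adjusted p = 0.000129). Itgb8, an integrin subunit, was at 25.9, 27.8 and 30.9 CPM against 55.2, 66.3 and 56.0 CPM, a log2 fold change of 1.07 ± 0.20 (edgeR adjusted p = 0.00161). Lpar1, a receptor for lysophosphatidic acid, was at 51.8, 55.4 and 52.6 CPM against 90.9, 90.9 and 87.3 CPM, a log2 fold change of 0.75 ± 0.14 (edgeR adjusted p = 0.00267). Both had groups that did not overlap. Cav1, the coat protein of caveolae, was at 73.0, 105 and 103 CPM against 106, 164 and 148 CPM, with mouse 1 lowest in both groups. Its call (0.57 ± 0.16, edgeR adjusted p = 0.0326; with the block 6.02e-05) was lost without any 1 library but that of mouse 1 in SGC0946+LPS, in the fit without the block (edgeR adjusted p = 0.0513 to 0.163). The adenosine receptor gene Adora2a (0.26 ± 0.14) and the formyl peptide receptor genes Fpr1 (0.33 ± 0.15) and Fpr2 (0.26 ± 0.18) were not called. Nor were Olfr56, an olfactory receptor gene (-0.04 ± 0.17), and Tarm1, an activating receptor of myeloid cells (0.41 ± 0.19), although Tarm1 was called higher with the block (edgeR adjusted p = 0.0465).

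**Figure D3:**
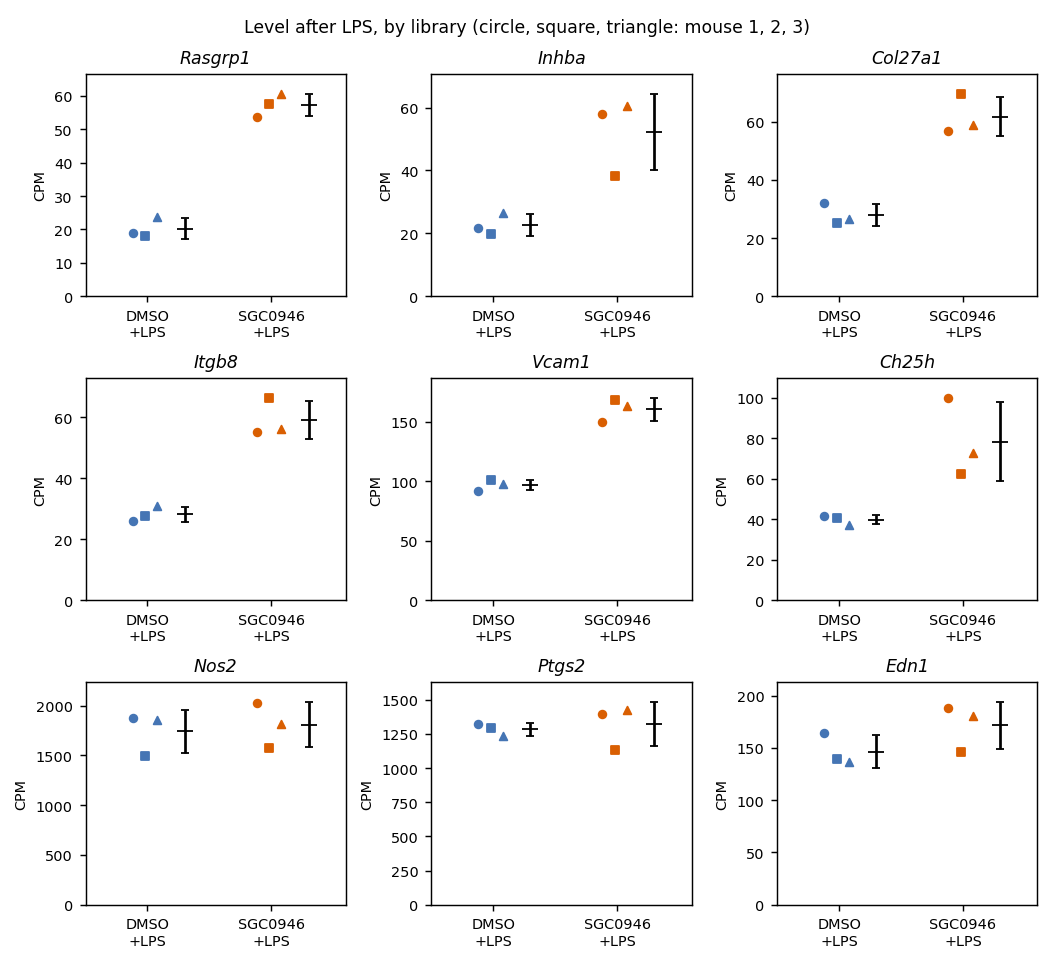
Level after LPS of 9 of the genes in each library (linear CPM axis from 0), with mean ± 1 SD over 3 mice beside the points, blue for DMSO+LPS and orange for SGC0946+LPS. The groups are separate for Rasgrp1, Inhba, Col27a1, Itgb8, Vcam1 and Ch25h, and they overlap for Nos2, Ptgs2 and Edn1.

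The enzymes divided. Ch25h, which makes 25-hydroxycholesterol (chr19:34473783-34475148), was at 41.9, 40.6 and 37.2 CPM in DMSO+LPS and at 99.8, 62.2 and 72.9 CPM in SGC0946+LPS. It was the only enzyme of the 6 that was called, with separate groups and a log2 fold change of 0.97 ± 0.16 (edgeR adjusted p = 0.000497). Nos2 was at 2031, 1579 and 1817 CPM in SGC0946+LPS, within the range of the DMSO+LPS libraries but for mouse 1, and its log2 fold change was 0.05 ± 0.14. Ptgs2 was at 1399, 1134 and 1427 CPM, above and below the DMSO+LPS libraries (0.04 ± 0.14). Hdc, which makes histamine from histidine, gave 0.02 ± 0.12. The groups overlapped for these 3 genes, and the sign for Nos2 and Ptgs2 changed in 2 of the 6 leave-one-out fits each. Upp1, uridine phosphorylase, gave 0.52 ± 0.19 and was called higher only with the block (edgeR adjusted p = 0.0979, with the block 0.0223). B3gnt5, a glycosyltransferase of lacto-series glycolipids, gave 0.42 ± 0.18.

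Of the 4 transcription factors, Nr4a3, an orphan nuclear receptor, was at 54.3, 55.6 and 60.6 CPM in DMSO+LPS and at 99.0, 82.4 and 121 CPM in SGC0946+LPS. It was called higher, with groups that did not overlap (0.82 ± 0.13, edgeR adjusted p = 0.000348). Lhx2, a LIM-homeodomain factor, gave -0.11 ± 0.14 and Plagl1, a zinc-finger factor, 0.29 ± 0.22, and neither was called. Mycl, a member of the MYC family, was at 41.6, 30.5 and 28.1 CPM against 40.6, 17.0 and 30.9 CPM (-0.18 ± 0.23), and its sign changed without mouse 1 in DMSO+LPS or mouse 2 in SGC0946+LPS. Mir155hg (chr16:84713023-84715245) was at 67.2, 56.3 and 64.6 CPM against 94.4, 97.2 and 93.4 CPM. Its groups were separate (0.60 ± 0.14, edgeR adjusted p = 0.0127, with the block 0.00128). In the fit without the block, the call was lost without DMSO+LPS replicate 2 (edgeR adjusted p = 0.081). Mir147 gave 0.48 ± 0.15 (edgeR adjusted p = 0.057, with the block 0.0095). AA467197, whose exon contains it, gave 0.55 ± 0.11 (edgeR adjusted p = 0.00491).

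The remaining intracellular proteins had smaller differences. Fscn1, an actin-bundling protein, was at 75.7, 64.7 and 63.1 CPM in DMSO+LPS and at 83.6, 100.5 and 76.4 CPM in SGC0946+LPS (0.36 ± 0.12). Together with Heatr9 (0.43 ± 0.14) it was called higher only with the block (edgeR adjusted p = 0.0363 and 0.0339). Abtb2 (0.04 ± 0.11), Asap3 (0.16 ± 0.12), an Arf GTPase-activating protein, Spsb1 (0.21 ± 0.10), Bcl2a1d (0.12 ± 0.11), a cell-survival protein of the BCL-2 family, and Slfn4 (0.28 ± 0.17) were not called.

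The 16 called genes had a median genomic span of 29.5 kb (1.37 to 121 kb) and the other 29 one of 12.6 kb (0.079 to 152 kb), as a description. Their median levels in DMSO+LPS were 38.3 and 46.9 CPM. Of the upstream LPS genes, 1 receptor or adaptor gene was higher and 2 were lower with SGC0946 after LPS, and 1 of the 37 kinase and transcription factor genes was higher. Tlr4 was higher by a log2 fold change of 0.25 ± 0.07 and Irf8, an interferon regulatory factor, by 0.22 ± 0.06. Ticam1, which encodes TRIF, fell by 0.43 ± 0.09 and Irak3, an inhibitory member of the IRAK family, fell by 0.34 ± 0.08. Medians of the lists were -0.04 and -0.01. The granulocyte marker list summed to 38.6 to 46.8 CPM in DMSO+LPS and 6.59 to 7.70 CPM in SGC0946+LPS, and the 5 endothelial markers, 4 of them past the filter, to 330 to 418 and 405 to 441 CPM. The list of 5 mast cell and basophil markers, 1 of them past the filter and Fcer1a at 0 throughout, summed to 5.59 to 6.18 CPM in DMSO+LPS and 7.46 to 11.8 CPM in SGC0946+LPS, without overlap. Their part in the result was not tested.

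Timd4, a receptor for phosphatidylserine on dying cells (chr11:46810786-46844333), differed more between mice after LPS than between the DMSO and SGC0946 arms. In DMSO+LPS it was at 29.7 CPM in mouse 1, 2.98 in mouse 2 and 48.9 in mouse 3, and in SGC0946+LPS at 62.6, 5.05 and 95.5 CPM. Mouse 2 was at 0 counts in all 4 of its libraries without LPS. Each mouse was higher with the inhibitor. The log2 fold change of 1.01 ± 0.68 was not called without the block (edgeR adjusted p = 0.432) and was called with it (0.99, edgeR adjusted p = 5.56e-05). Without both LPS libraries of mouse 2 it was 1.00 (edgeR adjusted p = 0.214). G530011O06Rik ran the other way, with 17.7, 69.7 and 29.2 CPM in DMSO+LPS and 21.1, 68.3 and 33.1 CPM in SGC0946+LPS, mouse 2 being highest in both. Its log2 fold change was 0.06 ± 0.41. The plot of these genes by mouse shows the order of mice recurring after LPS in both arms.

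**Figure D4:**
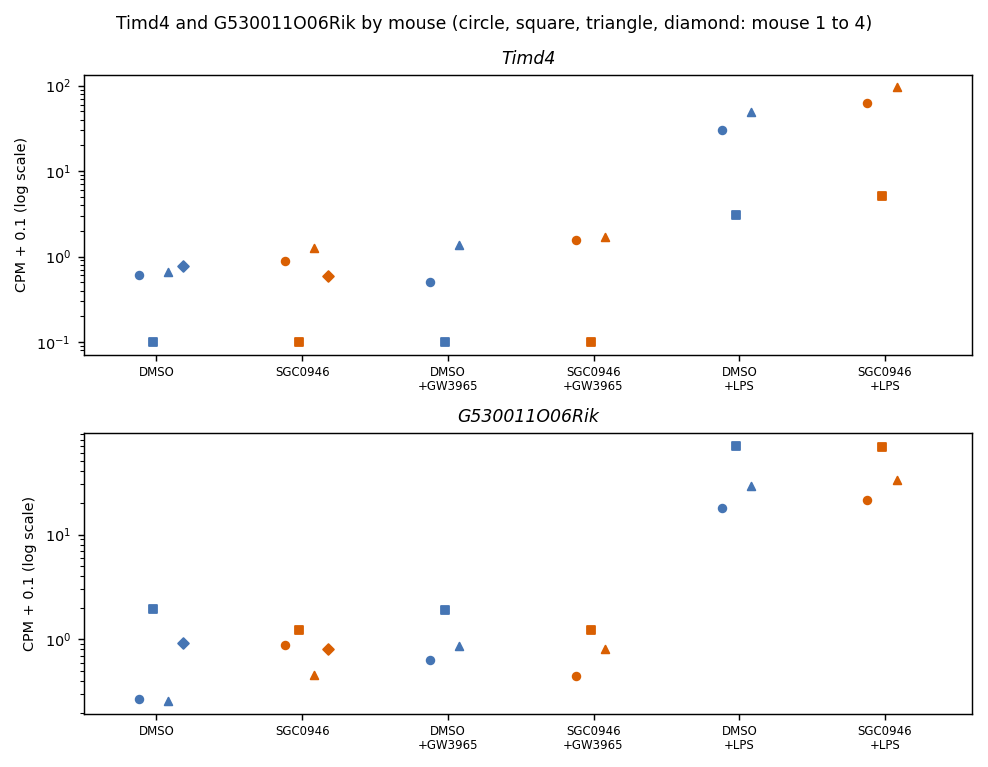
Level of Timd4 (top) and G530011O06Rik (bottom) in each library of the 6 groups, as CPM plus 0.1 on a log scale, with 1 symbol shape per mouse, blue for DMSO and orange for SGC0946. In the LPS groups the squares of mouse 2 are lowest for Timd4 (2.98 and 5.05 CPM) and highest for G530011O06Rik (69.7 and 68.3 CPM).

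Without LPS the members stayed low in every group, at a summed 22.95 to 29.2 CPM in SGC0946 cells against 17.0 to 18.7 CPM in DMSO cells. In unstimulated cells 3 of the 45 (6.67%) were higher with SGC0946 and none was lower by edgeR's adjusted p (4.55% of tested genes were called higher and 4.18% lower), a share close to the background. Groups lay apart upward for 4 (7.68% of tested genes) and downward for none (8.39%). The DMSO libraries set the upper limit for membership and are also the reference here. That choice tilts the comparison toward higher values with SGC0946, and counts this low leave little room for a call of lower. Htra1 was at 1.01, 0.928, 0.796 and 0.450 CPM in DMSO and at 2.95, 2.83, 3.16 and 2.42 CPM in SGC0946. The groups were far apart, with a log2 fold change of 1.82 ± 0.21 (edgeR adjusted p = 1.05e-05). B3gnt5 was at 0.923, 0.265, 0.717 and 0.900 CPM against 2.52, 1.34, 1.90 and 1.28 CPM (1.32 ± 0.33, edgeR adjusted p = 0.0147, with the block 0.0169). In the fit without the block, that call was lost without DMSO replicate 2 (edgeR adjusted p = 0.0603). Cnn3 was at 0.0839, 0.332, 0.239 and 0.225 CPM against 0.521, 0.447, 0.632 and 0.713 CPM (1.31 ± 0.34, edgeR adjusted p = 0.0479, with the block 0.0401). In the fit without the block, its call was lost without any 1 of 7 of the 8 libraries, all but DMSO replicate 2. Cav1 was at 0.671, 0.928, 0.717 and 0.900 CPM against 0.868, 1.94, 2.08 and 2.35 CPM, and was called only with the block (1.16 ± 0.37, edgeR adjusted p = 0.0507, with the block 0.00243). With DMSO replicate 4 as the only reference, since it alone lacks the word reanalyzed, 1 of the 45 was called higher, and this fit assumes that the lone library varies like the other groups. The mast cell and basophil list summed to 9.40 to 12.2 CPM in DMSO and 11.05 to 23.65 CPM in SGC0946, with overlap, while the granulocyte list, given above, was lower in every SGC0946 library. Their part in these calls was not tested.

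Under GW3965, in libraries the rule did not use, 5 of the 45 (11.1%) were higher with SGC0946 and none was lower (2.24% of tested genes were called higher and 1.40% lower). The members passed the filter through the DMSO+LPS libraries and lay at low counts here, which left little room for a call of lower. Mmp25, a called member, had 7 counts over the DMSO+GW3965 libraries and 29 over the SGC0946+GW3965 libraries. Tested genes as a whole were not chosen that way, so the shares are not on equal terms. The word reanalyzed marks every DMSO+GW3965 library and no SGC0946+GW3965 library, so it cannot be told apart from the inhibitor here. Htra1 was at 0.603, 0.513 and 0.591 CPM in DMSO+GW3965 and at 2.399, 2.76 and 2.42 CPM in SGC0946+GW3965 (2.12 ± 0.27, edgeR adjusted p = 8.03e-05). Cav1 was at 0.335, 0.0855 and 0.253 CPM against 0.942, 1.98 and 1.11 CPM (2.48 ± 0.61, edgeR adjusted p = 0.0254). Mmp25 was at 0.0670, 0.0855 and 0.422 CPM against 1.03, 0.863 and 0.705 CPM (2.19 ± 0.50, edgeR adjusted p = 0.0154). The groups did not overlap for any of these. Cnn3 (1.55 ± 0.32, edgeR adjusted p = 0.0145) and Rasgrp1 (1.62 ± 0.45, edgeR adjusted p = 0.0473) were the other calls. Groups lay apart upward for 7 of the 45 (9.85% of tested genes) and downward for 4 (10.4%). With the block, the same 5 were called higher (397 of all tested genes). Only Htra1 kept its call in all 6 leave-one-out fits, which carried no block. The count was 2 without SGC0946+GW3965 replicate 2 or any 1 of the DMSO+GW3965 replicates, and 3 without SGC0946+GW3965 replicate 1. The granulocyte marker list summed to 24.9 to 37.6 CPM in DMSO+GW3965 and 3.43 to 5.61 CPM in SGC0946+GW3965, and the mast cell and basophil list to 9.98 to 13.6 and 13.5 to 29.8 CPM, with overlap in the latter list. Their part in these calls was not tested.

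**Figure D5:**
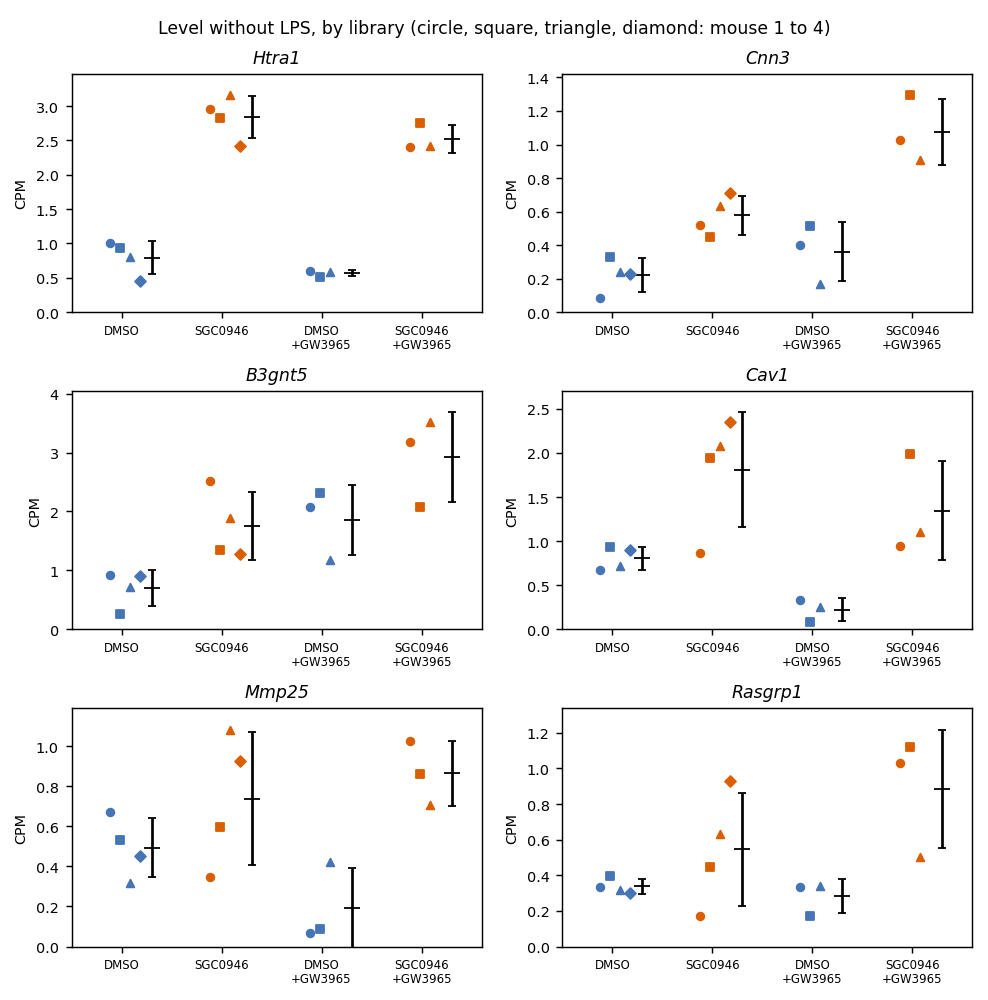
Level without LPS of 6 of the genes in each library (linear CPM axis from 0), with mean ± 1 SD beside the points, blue for the DMSO arm and orange for the SGC0946 arm. Htra1 lies at 1.01 CPM or below in all DMSO-arm libraries and at 2.399 CPM or above in all SGC0946-arm libraries, and the lower error bar of Mmp25 in DMSO+GW3965 ends at the axis.

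GW3965 itself moved none of the 45 in SGC0946 cells past edgeR's adjusted threshold (1.32% of tested genes were called higher and 1.11% lower). At unadjusted p under 0.05, 3 were higher and 7 lower, with no count over all tested genes to set beside them. DESeq2 called 0 higher and 1 lower. Nos2 was at 0.782, 0.596, 0.361 and 2.07 CPM in SGC0946 and at 0.343, 0.0863 and 0.101 CPM in SGC0946+GW3965, each library with the agonist below each without it. The log2 fold change was -2.39 ± 0.68 (edgeR adjusted p = 0.0709, with the block 0.0378). B3gnt5 had the highest mean level of the 45 in both GW3965 groups, 1.86 CPM in DMSO+GW3965 and 2.92 CPM in SGC0946+GW3965, with a log2 fold change of 0.74 ± 0.28 for GW3965 in SGC0946 cells that was not called (edgeR adjusted p = 0.209). Among the upstream genes, Tnfaip3 (0.40 ± 0.09) and Atf3 (0.43 ± 0.09), a transcription factor of the stress response, were higher with GW3965 in SGC0946 cells, and Ikbke, a kinase of the interferon branch, fell by 0.29 ± 0.06.

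Whether the effect of SGC0946 differed between LPS and GW3965 was tested as a difference of log2 fold changes. None of the 45 passed edgeR's adjusted threshold (0.00832% of tested genes, 1 gene, had a larger effect after LPS and 0.00% a smaller one). At unadjusted p under 0.05, 5 members had a larger effect after LPS and 4 a smaller one, again without a count over all tested genes. DESeq2 called 0 in both directions. Htra1 gave -1.21 ± 0.31 on the log2 scale, a smaller effect after LPS (unadjusted p = 0.000711, edgeR adjusted p = 0.211). The difference of the inhibitor's effect between LPS and unstimulated cells was not tested here.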

How the data were processed

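RNA of 20 libraries was sequenced as single 50 bp reads, with STAR 2.5.2b, SAMtools 1.3.1 and the build mm10 named in the submitters' processing notes. For the counting program, its annotation and the use of strand, the labels name nothing. The authors deposited counts per RefSeq transcript and a table of RPKM values for the same 35745 transcripts. The latter was used for levels per length and for an alternative choice of transcripts. RefSeq (GRCm38.p6) named 35440 transcripts, and the 305 unnamed ones (1.17% of counts) were left out. For 6035 symbols with several transcripts the one with the highest total count was kept, which left 57.3% of counts.

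Genes were tested with edgeR 4.0.16 (R 4.3.3, quasi-likelihood F test, Benjamini-Hochberg adjusted p under 0.05) fitting 1 mean to each of the 6 groups at once, after TMM scaling and filterByExpr (count minimum 10). The edgeR step was run first on simulated counts with known fold changes. CPM are scaled by TMM, whose factors were 0.686 to 0.717 in LPS libraries and 1.14 to 1.19 in others. SE is the size of the fold change on the log2 scale over the root of F. Alternatives were DESeq2 1.42.0, limma-voom (limma 3.58.1), other scalings, filters and thresholds, only the groups compared, a replicate block, and each library left out. 6 comparisons were tested. Libraries of a group differed beyond sampling noise (chi-square per gene 3.09 to 14.4 over 24 pairs).

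The deposited sample sheet gives the mouse of each library, so replicate numbers pair libraries. Same-mouse libraries of different groups deviated together (median r 0.20, 0.061 to 0.501, n = 46). For different mice the median r was -0.12 (-0.409 to 0.257, n = 120), so the ranges overlap. Deviations were taken from each group's own mean, so a positive r for the same mouse goes with a negative r between mice. The Y-linked gene Ddx3y was at 108.5 to 136 CPM in the 6 libraries of mouse 1 and at most 1.19 CPM in the other 14.

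The 45 genes, their roles, the pathway and marker lists and the tests were chosen with earlier results of these data known. Genes named are the members with the highest levels per role list, the called members with the smallest adjusted p, those nearest the thresholds, those with the most extreme inhibitor ratios, the highest under GW3965, and up to 4 called genes per pathway list and comparison. The other members were added, except 1 that counts in all totals and is not reported here. B cell and dendritic cell marker lists summed to at most 6.27 and 4.50 CPM.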

Additional observations from a re-analysis of the deposited data

Results flagged for a closer look

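In the 2 groups of 4 libraries, each member and the summed level were checked for a library far from its group, 92 checks in all, and 6 stood out. By construction, the limit used passes about 1 in 20 groups of normally distributed values by chance, a rate that need not hold at levels of a few reads. Adamts4 was at 0.637 CPM in DMSO replicate 3 against 0.168 to 0.225 in the others, and Tarm1 was also at 0.637 there against 0.168 to 0.225. Col27a1 was at 0.159 CPM in DMSO replicate 3 and at 0 in the others. Lpar1 was at 0.750 CPM in DMSO replicate 4 against 0.199 to 0.252, and Tgtp1 at 0.265 CPM in DMSO replicate 2 against 0.0750 to 0.0839. Abtb2 was at 0.356 CPM in SGC0946 replicate 4 against 0.894 to 0.993. All of these levels lay below 1 CPM and rest on low counts. Over the 4 libraries of the group, the counts were 2 for Col27a1 in DMSO and 39 for Abtb2 in SGC0946.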

How the results depend on the processing

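All 45 genes were higher after LPS in SGC0946 cells in every fit run. The number higher with SGC0946 after LPS was 16, and 18 by DESeq2, 22 by limma-voom, 19 with only the compared groups, 24 with the replicate block, 12 without both LPS libraries of mouse 2 (chosen after seeing the data) and 12 to 16 with 1 library left out. In unstimulated cells 3 became 5 by DESeq2, 1 when DMSO libraries with reanalyzed in the title were left out (also chosen after seeing the data) and 2 to 3 with 1 library left out. Under GW3965, 5 became 3 by limma-voom, 1 with only the compared groups and 2 to 5 with 1 library left out, and DESeq2 called 1 lower. For GW3965 in SGC0946 cells, 0 lower became 1 by DESeq2, without the filter and with the replicate block, and 0 to 1 with 1 library left out. The block changed no other count by over 1.5 times. The cause of these changes was not tested. For these other fits, apart from the block, the number of all tested genes called was not counted. The signs of uncalled genes changed: with 1 library left out, the log2 fold change ran from -0.501 to 0.1083 for Mycl (0.0035 without mouse 1 in DMSO+LPS, 0.0441 without both of mouse 2), from -0.0493 to 0.1412 for Nos2 (-0.0405 without mouse 1 in SGC0946+LPS) and from -0.0195 to 0.1396 for Ptgs2 (-0.0037 without that library). Membership was 68 with a resting limit of 2 CPM, 31 with 0.5 CPM, 66 with an LPS limit of 10 CPM, 23 with 40 CPM, 31 without TMM scaling and 43 to 49 with 1 library left out. Of those, 20, 12, 27, 7 and 10 were higher with SGC0946 after LPS, in that order, and 1, 0, 0, 0 and 0 lower. Of 582 checks of single genes, 521 kept the direction and side of the threshold. Levels below 0.3 CPM rest on few reads, which limits all comparisons without LPS.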

Other observations

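The symbol rule left out 9 genes that met both limits: Ccl22, Ccl8, Cxcl1, Cxcl11, Cxcl9, Gbp11, Il12b, Il27 and Il6. After LPS, Cxcl11 (0.79 ± 0.09, edgeR adjusted p = 1.93e-05) and Cxcl9 (0.57 ± 0.11, edgeR adjusted p = 0.00303), ligands that attract T cells, and Gbp11 (0.94 ± 0.16, edgeR adjusted p = 0.000903), a guanylate-binding protein, were higher with SGC0946. Ccl8, a monocyte chemokine, was lower (-0.42 ± 0.12, edgeR adjusted p = 0.0328). Il6 (0.23 ± 0.11), Il27 (0.06 ± 0.09), Cxcl1 (-0.01 ± 0.20), Ccl22 (0.55 ± 0.24) and Il12b (0.79 ± 0.39) were not called without the block. With it, Ccl22 and Il12b were called higher (edgeR adjusted p = 0.0302 and 1.19e-06).

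Close relatives of members gave different values. Bcl2a1b, a paralog of Bcl2a1d, was higher with SGC0946 after LPS by a log2 fold change of 0.36 ± 0.06 (edgeR adjusted p = 0.00091), while Bcl2a1d gave 0.12 ± 0.11. Tgtp2, a near copy of Tgtp1, was at 157 CPM in DMSO+LPS and 173 CPM in SGC0946+LPS and gave 0.13 ± 0.17. Counts of such pairs can hold each other's reads.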
